A study of Homo sapiens with 45 samples.

Results

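Glycolysis and the response to low oxygen (hypoxia) were followed through a list of 42 genes given by symbol, 26 of glucose uptake, glycolysis and the fate of pyruvate and 16 of the hypoxia response. The list names genes by function, was drawn up with earlier results of these data known, and all 42 symbols were found among the 29159 genes counted. Of these members, 41 passed the filter on low counts in SK-N-BE(2)C, 40 in SH-SY5Y and 39 in IMR-32. *CA9* failed it in every line, *EPAS1* and *ADM* failed it in IMR-32, and *SLC2A3* failed it in SH-SY5Y.

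Glycolysis splits glucose into pyruvate, which is either reduced to lactate by lactate dehydrogenase or sent to the mitochondria through pyruvate dehydrogenase. Proliferating cells and many tumours run the pathway fast even where oxygen is present. When oxygen falls, prolyl hydroxylases no longer mark the alpha subunits of the hypoxia-inducible factors (HIFs) for destruction, and the stabilised factors bind short DNA sequences beside their targets, which include many glycolytic genes as well as genes of angiogenesis, mitophagy and collagen modification. The oxygen control of *HIF1A* and *EPAS1* acts on the proteins, which RNA-seq does not measure.

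RNA-seq was made from 3 established ADRN-type (adrenergic) neuroblastoma lines in 9 groups of 5 biological replicates: control, palbociclib (PB), which inhibits the cell cycle kinases CDK4 and CDK6, at 1 μM for 24 h, and PB for longer. The longer treatment lasted 7 d in SK-N-BE(2)C and 5 d in IMR-32 and SH-SY5Y, so for SK-N-BE(2)C against either other line at that time, line and duration cannot be told apart. Controls were collected with the 24 h samples, and the longer groups therefore differ from control in days of culture as well as in PB. The study describes IMR-32 and SK-N-BE(2)C as MYCN amplified and SH-SY5Y as carrying a mutation of ALK, and its replicates as passages of 1 line plated in separate experiments. All groups were grown in DMEM/F12 with serum, and the sources used here give no oxygen tension.

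Libraries held 13459219 to 25441812 counts, so that 1 CPM (counts per 1000000, scaled by TMM factors over all 45 libraries) stood for about 18.5 reads at the median depth. The summed level of 8 adrenergic markers was 2215 to 2538 CPM in control and 3027 to 3301 at 24 h for SK-N-BE(2)C. It was 2141 to 3214 and 3363 to 4465 CPM for IMR-32, and 3576 to 4840 and 5359 to 7125 for SH-SY5Y, without overlap in any of the lines. After the longer treatment it was 2621 to 3252, 2980 to 3632 and 3582 to 5243 CPM in the same order of lines. Adrenergic markers called at 24 h by edgeR (adjusted p below 0.05 and a log2 change past 0.5) were 1 (SK-N-BE(2)C), 4 (IMR-32) and 2 (SH-SY5Y), all higher, where 10.9%, 7.87% and 10.5% of all genes were. With longer treatment 1 was lower in each line and 0, 1 and 1 were higher. The summed level of the 7 mesenchymal markers found was 134 to 522 CPM, and that of 4 Schwann cell markers was 1.34 to 27.7 CPM. Of the 6 mesenchymal markers tested in SK-N-BE(2)C, 4 were called lower at 7 d (22.3% of all genes) and 1 higher, with a summed level of 208 to 220 CPM in control and 207 to 370 at 7 d. In IMR-32 3 of 4 were lower and 0 higher at 5 d, and in SH-SY5Y 5 of 7 were lower and 1 higher, where 15.5% and 17.3% of all genes were lower. At 24 h 1 of 6 was lower and 1 higher in SK-N-BE(2)C (10.6% of all genes lower), 1 of 4 was lower in IMR-32 (10.5%) and 4 of 7 were lower in SH-SY5Y (11.0%). Of 3 Schwann cell markers tested in SK-N-BE(2)C, 2 were higher at 24 h (10.9% of all genes), and 1 was higher and 1 lower at 7 d (24.5% of all genes higher). Of 3 in SH-SY5Y 1 was higher at 24 h and 2 at 5 d (10.5% and 18.6%), and the 1 tested in IMR-32 was not called at 24 h and higher at 5 d (7.87% and 16.6%). The part of these markers in the results below was not tested. Replicate 5 of IMR-32 stood apart in all 3 groups, with a root mean square log2 distance from its group of 0.564, 0.547 and 0.404 against 0.191 to 0.336 for the other IMR-32 libraries. Its control lay above the other 4 controls for 23 of the 39 members tested and below them for 8, and some IMR-32 changes are also given without it. In SH-SY5Y replicate 4 was the highest of its group for 20, 21 and 10 of 25 glycolysis members in the control, 24 h and 5 d groups, and replicate 1 was the lowest for 19, 18 and 14. At 5 d replicate 5 was the highest for 12.

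The core letters of the hypoxia response element, ACGTG or GCGTG on either strand, were present in 27 of the 36 members whose promoter was in the RefSeq table of GRCh38.p14, or 75.0%. The same letters were in 48.4% of all 27305 promoters of the same length in that table. They were in 16 of 23 glycolysis promoters and 11 of 13 hypoxia promoters. ACGTG alone was found in 44.4% of members and 21.6% of all promoters, GCGTG in 18 of 36 members and 36.3% of all promoters, and the E-box CACGTG, which contains ACGTG, in 16.7% and 7.43%. *PFKFB2*, *SLC2A3*, *SLC16A1*, *BNIP3L*, *VEGFA* and *NDRG1* had no entry. The stretches below are shown because they hold the core letters of members whose values follow: *LDHA* and *ENO1*, lower in every line at the longer time, *DDIT4*, higher in every line at 24 h, and *PGK1* and *BNIP3*, called in no comparison with control. *PGAM1*, also lower in every line at the longer time, had 0 cores. The stretches of *LDHA* and *DDIT4* were cut to the part nearest the start. Their promoters held 6 and 4 cores, with CACGTG counted on both strands. Cores past the start are not shown. The cores are in capitals, read 5′ to 3′ on the strand of the gene, and CACGT and CACGC are the same letters on the other strand. They lie at chr11:18394430-18394514 on the plus strand (*LDHA*), chr1:8878734-8878872 on the minus strand (*ENO1*), chrX:78104017-78104089 on the plus strand (*PGK1*), chr10:72273811-72273895 on the plus strand (*DDIT4*) and chr10:131982003-131982086 on the minus strand (*BNIP3*) of GRCh38.p14.
LDHA: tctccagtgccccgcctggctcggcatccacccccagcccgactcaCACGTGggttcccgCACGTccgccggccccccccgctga
ENO1: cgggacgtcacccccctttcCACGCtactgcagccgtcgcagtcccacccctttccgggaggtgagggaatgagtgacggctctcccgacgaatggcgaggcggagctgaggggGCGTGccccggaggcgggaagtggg
PGK1: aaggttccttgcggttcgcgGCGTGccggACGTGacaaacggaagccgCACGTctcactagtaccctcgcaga
DDIT4: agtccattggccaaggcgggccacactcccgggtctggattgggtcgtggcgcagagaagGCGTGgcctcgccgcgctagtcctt
BNIP3: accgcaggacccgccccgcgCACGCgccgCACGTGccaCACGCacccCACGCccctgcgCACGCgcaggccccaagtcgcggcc
Members with several cores differed in their response. A match describes letters and not a bound site, and binding was not measured here.

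Before treatment the lines already differed in these genes. On the scale of CPM per kilobase of exon, averaged over all 45 libraries, *GAPDH* was the highest member at 1306, followed by *LDHB* at 410.2, *TPI1* at 275, *ENO1* at 198 and *PKM* at 166. Untreated SK-N-BE(2)C had 17 members higher and 9 lower than untreated IMR-32 of 41 tested (edgeR's quasi-likelihood test, an adjusted p below 0.05 with a log2 fold change past 0.5, as for every call), where 30.8% and 31.3% of all genes were called. Against SH-SY5Y it had 15 members higher and 16 lower, where 27.9% and 29.7% of all genes were. Untreated IMR-32 had 8 members higher and 18 lower than SH-SY5Y, where 26.6% and 27.7% of all genes were. Lines may also have been sequenced apart, which cannot be told apart from line.

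*LDHA*, the lactate dehydrogenase subunit that favours lactate formation, was at 29.9 ± 1.62 CPM (SD, n = 5) in untreated SK-N-BE(2)C. It reached 851 ± 306 CPM in untreated IMR-32 and 740.3 ± 138 CPM in untreated SH-SY5Y, 28.4 and 24.7 times as high. *NDRG1*, a stress-responsive HIF target, was likewise low in SK-N-BE(2)C, at 1.18 ± 0.254 CPM against 10.7 ± 1.64 and 12.2 ± 1.27. *EPAS1*, which encodes HIF-2α, showed the opposite gap, with 2 to 11 reads per untreated IMR-32 library (0.281 ± 0.164 CPM) against 49.1 ± 10.5 CPM in SK-N-BE(2)C and 84.1 ± 16.3 CPM for SH-SY5Y. IMR-32 was also the lowest line for *VEGFA*, the angiogenic growth factor, with 14.3 ± 4.79 CPM against 113 ± 10.9 in SK-N-BE(2)C and 72.2 ± 11.5 CPM for SH-SY5Y. *SLC2A3*, the neuronal glucose transporter GLUT3, had 0 reads in all 15 SH-SY5Y libraries. Taking 3 counts over the 5 untreated SH-SY5Y libraries as the limit that 0 allows, it was at least 498-fold higher in untreated SK-N-BE(2)C and at least 218-fold higher in untreated IMR-32. *CA9*, the carbonic anhydrase often used as a hypoxia marker, had 0 to 11 reads in any library and is described no further.

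**Figure D1:**
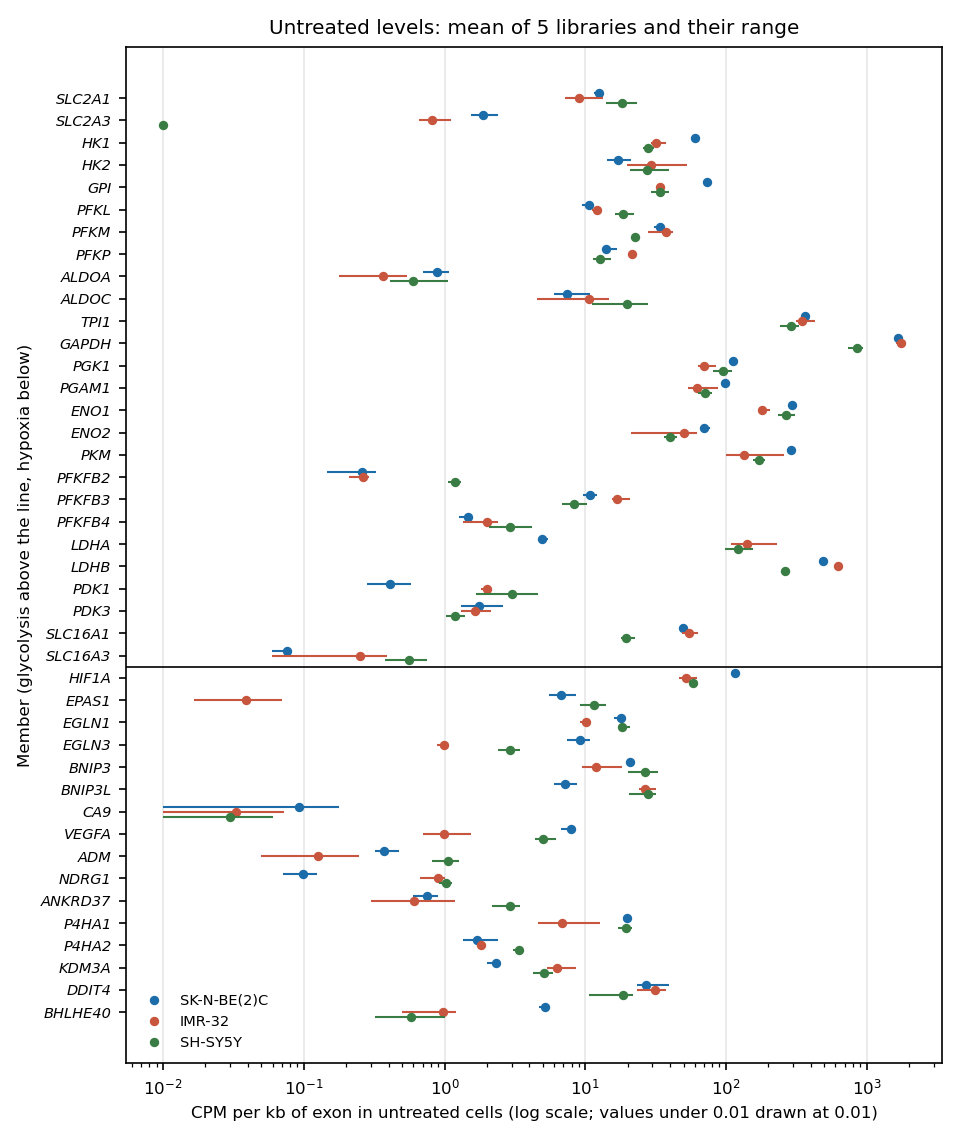
Levels of the 42 members in untreated cells of the 3 lines, as CPM per kilobase of exon on a log axis, with points at the mean of 5 libraries and bars from the lowest to the highest (values under 0.01 are drawn at 0.01). *GAPDH* stood highest in each line, and *LDHA*, *NDRG1*, *EPAS1* and *SLC2A3* were set far apart between lines.

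After 24 h of PB few members were called, and *DDIT4* was the only member called alike in all 3 lines. It was higher in each, which makes 1 of the 38 members tested in each line (2.63%), against 2.84% of all genes. Lower in each line were 0 members and 5.81% of all genes. In SK-N-BE(2)C 4 members rose and 1 fell of 41 tested, where 10.9% of all genes rose and 10.6% fell. IMR-32 had 3 higher and 4 lower of 39, where 7.87% and 10.5% of all genes were called. SH-SY5Y had 5 higher and 1 lower of 40, where 10.5% and 11.0% were. The members' shares were near or under these backgrounds in each direction. The median log2 fold change of the glycolysis members was 0.08 for SH-SY5Y, −0.08 for IMR-32 and −0.11 for SK-N-BE(2)C, and that of the hypoxia members 0.28, 0.03 and 0.04. Over all genes tested the medians were 0.04, 0.06 and 0.02.

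At the longer time the glycolysis members moved down in SK-N-BE(2)C and SH-SY5Y. SK-N-BE(2)C at 7 d had 1 glycolysis member higher and 15 lower of 26, and SH-SY5Y at 5 d had 0 higher and 14 lower of 25. IMR-32 at 5 d had 1 higher and 3 lower of 26. Of all genes, 24.5% were higher and 22.3% lower in SK-N-BE(2)C, 18.6% and 17.3% for SH-SY5Y, and 16.6% and 15.5% in IMR-32. The median of the glycolysis members was −0.67 for SH-SY5Y, −0.60 for SK-N-BE(2)C and −0.11 for IMR-32, against 0.01, 0.01 and 0.00 over all genes tested. Of the 40 members tested in both SK-N-BE(2)C and SH-SY5Y, 12 (30.0%) were lower in both, as were 11.7% of all genes. These were *EGLN3* of the hypoxia response and 11 of glycolysis: *HK2*, *PFKP*, *TPI1*, *GAPDH*, *PGAM1*, *ENO1*, *PKM*, *LDHA*, *LDHB*, *PDK1* and *SLC16A1*. *PGAM1*, *ENO1* and *LDHA* were lower in IMR-32 as well, which makes 3 of the 38 members tested in each line, and 816 of 12556 genes were lower in each. The hypoxia members were divided, with 5 higher and 3 lower in SK-N-BE(2)C, 3 and 1 for SH-SY5Y and 1 and 2 in IMR-32, and medians of 0.10, 0.08 and −0.10. Each of these 3 hypoxia medians changed sign with 1 library left out, over −0.057 to 0.15, −0.0054 to 0.13 and −0.16 to 0.12. Without replicate 5 of every group, chosen after seeing the data, IMR-32 had 11 members called at 5 d in place of 7, 5 higher and 6 lower, where 18.1% of all genes were higher and 16.9% lower, and its hypoxia median was 0.091. Because RNA was taken from whole cultures, fewer cells of a kind and less RNA per cell cannot be told apart.

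**Figure D2:**
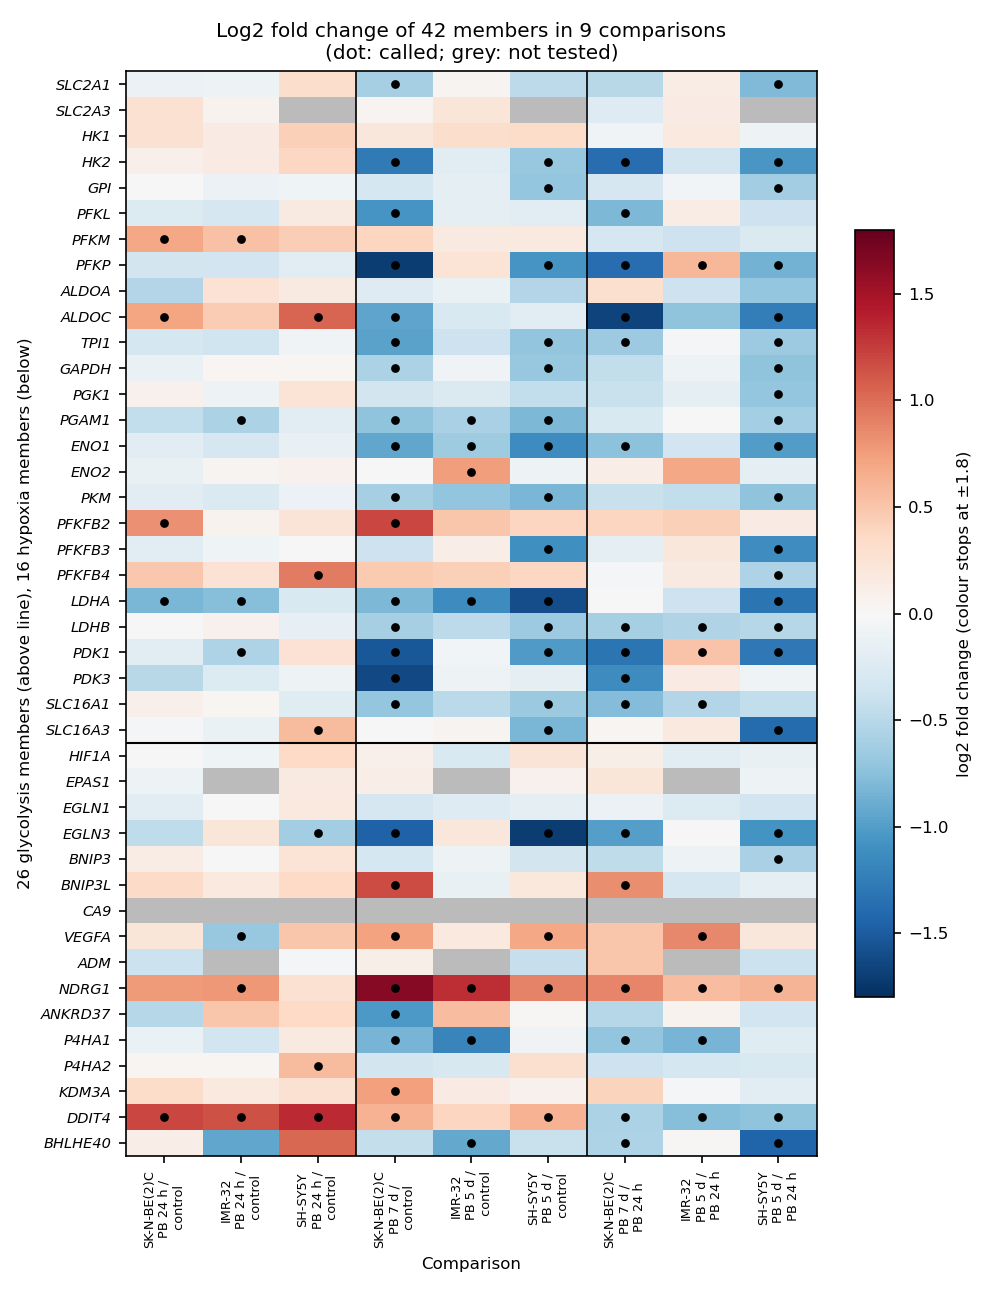
Log2 fold changes of the 42 members (rows, by role) in 9 comparisons (columns), with a dot where a member was called and grey where it was not tested; colours stop at −1.8 and 1.8. Lower calls fill the enzyme and lactate rows at the longer time in SK-N-BE(2)C (15 of 26 glycolysis members) and SH-SY5Y (14 of 25), but not in IMR-32 (3 of 26).

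Among the glycolytic enzymes, *ENO1* and *PGAM1* were called lower at the longer time in each line, and *TPI1*, *GAPDH* and *PKM* in SK-N-BE(2)C and SH-SY5Y. *ENO1* (GRCh37 1:8921059-8939249), the common enolase, was at 1684, 1561, 1462, 1481 and 1449 CPM in the 5 SK-N-BE(2)C controls, at 1491, 1444, 1225, 1203 and 1275 after 24 h and at 1052, 615, 665, 823 and 805 after 7 d. In IMR-32 it went from 934, 900.0, 931, 897 and 1075 CPM in control to 718, 870.4, 692, 699 and 865 at 24 h and 616, 513, 607, 530.3 and 703 at 5 d. In SH-SY5Y it went from 1218, 1315, 1410.1, 1609 and 1439 CPM to 1062, 1118, 1254, 1635 and 1418 and 503, 544, 676, 672 and 821. Every longer-treated library of each line lay under every control of that line. The log2 fold change was −0.94 ± 0.12 (adjusted p = 1.94e-06) in SK-N-BE(2)C, −0.64 ± 0.10 (adjusted p = 0.00011) in IMR-32 and −1.14 ± 0.14 (adjusted p = 1.2e-06) in SH-SY5Y. At 24 h *ENO1* was called in none of the lines.

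*PGAM1* (10:99185948-99193201), the phosphoglycerate mutase that precedes enolase, was at 240.3, 248, 247, 259 and 264 CPM in SK-N-BE(2)C controls and 178, 129, 139, 158 and 156 at 7 d, a change of −0.72 ± 0.07 (adjusted p = 7.98e-08). SH-SY5Y controls held 160.0, 164, 172, 203 and 197 CPM and the 5 d libraries 85.97, 96.7, 104, 109 and 121, a change of −0.81 ± 0.10 (adjusted p = 1.31e-06). The treated and control libraries did not overlap in either line. IMR-32 controls held 148, 139, 146, 136 and 223 CPM, with replicate 5 the highest. The 24 h libraries held 101, 120.0, 94.2, 88.2 and 127 CPM and the 5 d libraries 104, 96.1, 100.0, 90.4 and 124. The fold change was −0.58 ± 0.14 (adjusted p = 0.00622) at 24 h and −0.58 ± 0.14 (adjusted p = 0.00338) at 5 d, and without control replicate 5 it was −0.41 and −0.42, no longer past the limit of 0.5.

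*TPI1*, triose phosphate isomerase, changed by −0.96 ± 0.09 (adjusted p = 5.06e-08) in SK-N-BE(2)C, from 978 ± 20.95 to 498 ± 83.9 CPM. In SH-SY5Y it changed by −0.71 ± 0.13 (adjusted p = 9.03e-05), from 779.8 ± 95.6 to 482 ± 83.1 CPM. In IMR-32 the difference of −0.37 ± 0.12 stayed within the limit of 0.5. *GAPDH* (12:6643678-6647540), the dehydrogenase often used as a reference gene, changed by −0.56 ± 0.05 (adjusted p = 6.33e-08) in SK-N-BE(2)C and −0.69 ± 0.11 (adjusted p = 2.03e-05) in SH-SY5Y, with no overlap between control and treated libraries. Its levels were 3979 ± 143 CPM in control and 2672 ± 160.3 at 7 d in SK-N-BE(2)C, and 2052 ± 195 and 1291 ± 174 in SH-SY5Y. In IMR-32 *GAPDH* was 4183 ± 247 CPM in control and 3908 ± 213 at 5 d, a difference of −0.06 ± 0.08 (adjusted p = 0.575). *PKM*, pyruvate kinase of muscle and most proliferating cells, changed by −0.60 ± 0.09 (adjusted p = 9.21e-06) in SK-N-BE(2)C and −0.83 ± 0.10 (adjusted p = 8.67e-07) in SH-SY5Y. Its IMR-32 controls were 904, 856, 970.4, 852 and 2214 CPM, with replicate 5 over the others, and −0.71 ± 0.33 at 5 d did not pass the test (adjusted p = 0.0892). Without control replicate 5 it was −0.33 and not called, and with the replicate number as a block it was −0.59 and called. Processed pseudogenes of *GAPDH*, *TPI1*, *ENO1*, *PGAM1*, *PKM* and *LDHA* could take up a share of their reads, and which strand was counted is not known here.

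**Figure D3:**
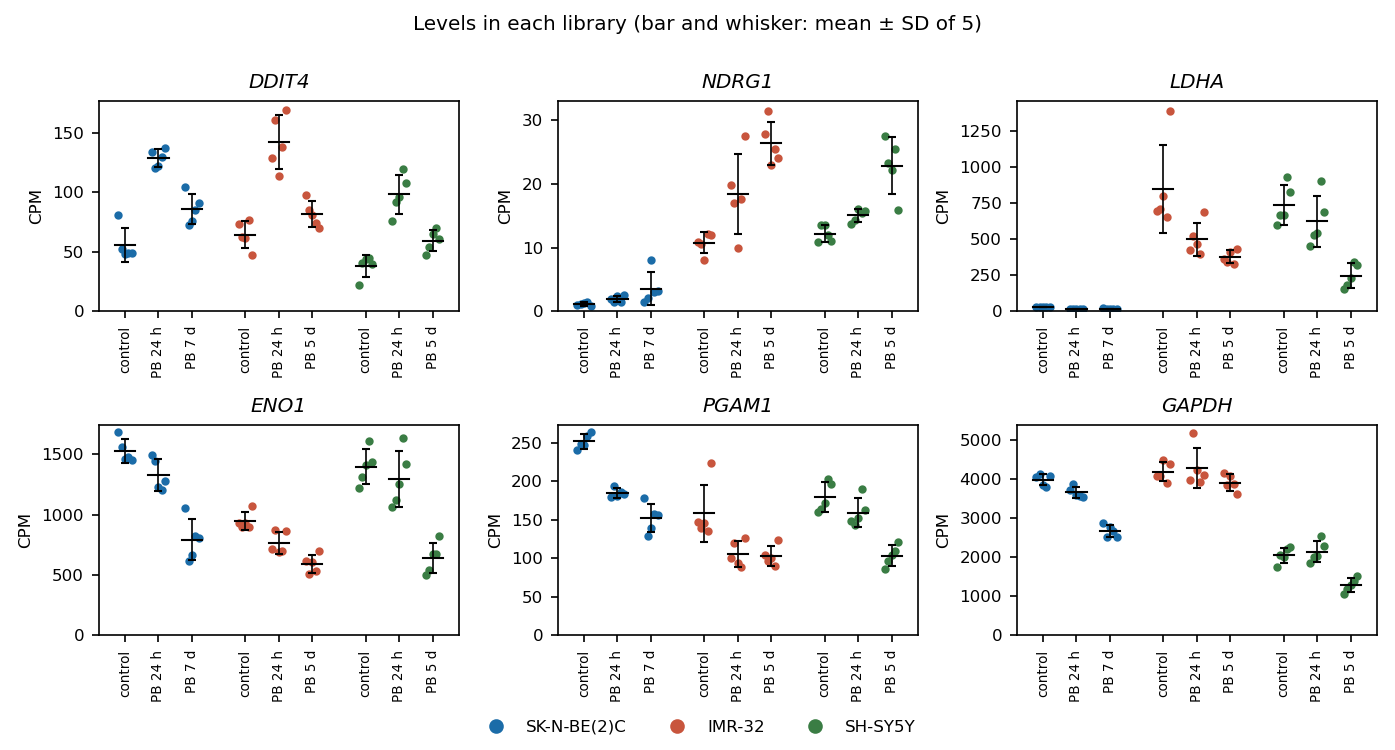
CPM of *DDIT4*, *NDRG1*, *LDHA*, *ENO1*, *PGAM1* and *GAPDH* in each of the 45 libraries by line and group, with points for libraries and bars for the mean ± SD of 5. *DDIT4* peaked at 24 h in each line, *NDRG1* was highest at the longer time, and *ENO1* was lowest at the longer time in each line.

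*LDHA* (11:18416107-18429972) was lower at the longer time in each line and at 24 h in IMR-32 and SK-N-BE(2)C. In SK-N-BE(2)C it was already low, at 28.8, 32.7, 28.7, 29.7 and 29.9 CPM in control, and stood at 17.6, 16.3, 17.9, 15.6 and 17.03 after 24 h and 20.7, 17.3, 14.8, 16.8 and 15.2 after 7 d. In IMR-32 controls held 698, 713, 798, 656 and 1391 CPM, the 24 h libraries 427, 524, 469.7, 399 and 687 and the 5 d libraries 364, 346, 413, 331 and 437. In SH-SY5Y controls held 597, 669, 671, 936 and 828 CPM, the 24 h libraries 457, 530.3, 542, 906 and 688 and the 5 d libraries 154, 183, 235, 346 and 326. The longer-treated libraries lay under all controls in each line, and at 24 h only SK-N-BE(2)C was free of overlap. At 24 h *LDHA* changed by −0.83 ± 0.08 (adjusted p = 8.02e-07) in SK-N-BE(2)C and −0.76 ± 0.20 (adjusted p = 0.00845) in IMR-32, while −0.27 ± 0.24 in SH-SY5Y did not pass the test (adjusted p = 0.363). Without control replicate 5 the IMR-32 change at 24 h was −0.50 and was still called. At the longer time *LDHA* changed by −0.81 ± 0.08 (adjusted p = 2.54e-07) in SK-N-BE(2)C, −1.13 ± 0.20 (adjusted p = 0.000299) in IMR-32 and −1.59 ± 0.24 (adjusted p = 4.34e-05) in SH-SY5Y. Between 24 h and 7 d it differed by 0.01 ± 0.08 (adjusted p = 0.904) in SK-N-BE(2)C, and between 24 h and 5 d it changed by −1.32 ± 0.24 (adjusted p = 0.000665) in SH-SY5Y.

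*LDHB*, the subunit that favours pyruvate, fell at the longer time in SH-SY5Y (−0.65 ± 0.12 (adjusted p = 0.000174)) and SK-N-BE(2)C (−0.59 ± 0.07 (adjusted p = 1.66e-06)). Its means were 1463 ± 60.9 CPM in control and 963 ± 119 at 7 d in SK-N-BE(2)C, and 779.9 ± 43.2 and 502 ± 118 in SH-SY5Y. In IMR-32 it went from 1860.1 ± 97.9 to 1306 ± 192 CPM, a change of −0.47 ± 0.10 (adjusted p = 0.00158) that missed the limit of 0.5 and passed it at −0.52 without 5 d replicate 3, −0.54 without 5 d replicate 5 and −0.51 without replicate 5 of every group. A same-strand neighbour overlaps 33.4% of its exon bases. *PDK1*, a kinase that switches off pyruvate dehydrogenase, changed by −1.53 ± 0.24 (adjusted p = 2.65e-05) in SK-N-BE(2)C and by −1.02 ± 0.34 (adjusted p = 0.0179) in SH-SY5Y, the latter −0.82 and not called without control replicate 4. In IMR-32 *PDK1* fell at 24 h only, from 29.8 ± 2.29 to 20.2 ± 2.31 CPM (−0.56 ± 0.14 (adjusted p = 0.00634)), and was at 28.1 ± 6.02 CPM at 5 d. Without replicate 5 of every group the 24 h change was −0.48 and not called. *PDK3*, its relative, was called in SK-N-BE(2)C, from 30.8 ± 9.22 to 9.99 ± 1.92 CPM (−1.62 ± 0.22 (adjusted p = 9.05e-06)).

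*SLC16A1*, the lactate and pyruvate transporter MCT1, fell at the longer time in SH-SY5Y (−0.67 ± 0.10 (adjusted p = 1.93e-05)) and SK-N-BE(2)C (−0.69 ± 0.06 (adjusted p = 3.72e-08)). In IMR-32 its change of −0.49 ± 0.12 just missed the limit, and lay between −0.51 and −0.57 and was called without control replicate 1 or 4 or 5 d replicate 3 or 5. *SLC16A3*, the lactate exporter MCT4, was at 4.83, 6.95, 4.65, 5.86 and 3.51 CPM in SH-SY5Y controls, 7.21, 8.36, 8.18, 7.71 and 7.53 at 24 h and 2.51, 2.28, 2.62, 5.06 and 2.32 at 5 d. It was thus called higher at 24 h (0.57 ± 0.19 (adjusted p = 0.0223)) and lower at 5 d (−0.82 ± 0.21 (adjusted p = 0.00205)). The 24 h call was lost, at 0.46, 0.52 and 0.53, without control replicate 5 and 24 h replicates 2 and 3. *SLC2A1*, the glucose transporter GLUT1, fell in SK-N-BE(2)C from 82.5 ± 4.74 to 53.95 ± 12.97 CPM (−0.60 ± 0.12 (adjusted p = 0.000349)). In SH-SY5Y its change of −0.48 ± 0.20 missed the limit and was called, at −0.52 to −0.65, without control replicate 1 or 3 or 5 d replicate 4 or 5.

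Phosphofructokinase, the committed step of glycolysis, has 3 genes, and they did not move together. *PFKP* (10:3108525-3179910), the platelet isozyme, was at 130.4, 102, 102, 109 and 102 CPM in SK-N-BE(2)C controls, 98.8, 83.5, 81.7, 82.97 and 85.8 at 24 h and 33.6, 32.5, 34.2, 35.7 and 30.3 at 7 d. SH-SY5Y controls held 88.1, 90.4, 104, 118 and 92.2 CPM and the 5 d libraries 33.02, 31.3, 40.6, 79.7 and 54.1. In both lines every longer-treated library lay under the lowest control. IMR-32 controls held 169, 163, 164, 167 and 168 CPM, and the 5 d libraries 210.3, 209.6, 204, 200.5 and 137, where 4 libraries lay over all controls and replicate 5 under them. The change was −1.70 ± 0.08 (adjusted p = 4.86e-11) in SK-N-BE(2)C, −1.06 ± 0.23 (adjusted p = 0.000817) in SH-SY5Y and 0.25 ± 0.10 (adjusted p = 0.0502) in IMR-32, the last not called. *PFKL*, the liver isozyme, fell in SK-N-BE(2)C from 95.5 ± 6.89 to 45.6 ± 6.78 CPM (−1.06 ± 0.09 (adjusted p = 2.05e-08)).

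*PFKM*, the muscle isozyme, chosen after its values were seen, went the other way at 24 h. SK-N-BE(2)C controls held 262, 224, 253, 247 and 240.2 CPM and the 24 h libraries 381, 367, 411, 407 and 419, a rise of 0.70 ± 0.07 (adjusted p = 5.03e-07). IMR-32 controls held 293, 273, 288, 307 and 202 CPM and the 24 h libraries 399, 387, 405, 393 and 379, a rise of 0.53 ± 0.09 (adjusted p = 0.000326) that became 0.44, under the limit, without control replicate 5. That call was also lost, at 0.49 to 0.50, with RLE factors, with library size alone and with DESeq2. SH-SY5Y controls held 155, 163, 166, 173 and 162 CPM and the 24 h libraries 229, 199.8, 226, 233 and 242, a difference of 0.44 ± 0.06 (adjusted p = 6.29e-06) that missed the limit of 0.5. Control and 24 h libraries did not overlap in any of the lines. Per kilobase of exon, *PFKM* made up 57.8% ± 1.28 of phosphofructokinase reads in SK-N-BE(2)C controls, 73.1% ± 1.73 at 24 h and 82.3% ± 1.89 at 7 d (SD, n = 5). It went from 42.02% ± 2.10 to 49.0% ± 2.29 and 53.8% ± 4.44 in SH-SY5Y. In IMR-32 it went from 52.6% ± 4.24 to 67.1% ± 1.39 and back to 53.8% ± 3.75.

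Other isozyme pairs shifted with time. *HK2*, the inducible hexokinase, fell in SH-SY5Y (−0.68 ± 0.20 (adjusted p = 0.00865)) and SK-N-BE(2)C (−1.28 ± 0.20 (adjusted p = 3.08e-05)), while *HK1*, the constitutive form, was not called in any comparison of treated with control libraries or of treatment times. *HK2* made up 22.1% ± 3.37 of the pair per kilobase in SK-N-BE(2)C controls and 9.11% ± 1.53 at 7 d. In SH-SY5Y it made up 49.3% ± 5.08 in control and 32.8% ± 6.61 at 5 d, and the shares of control and treated libraries did not overlap in either line. IMR-32 had 46.5% ± 7.28 in control and 39.4% ± 2.19 at 5 d, with overlapping libraries. *HK2* was not called there, and without control replicate 5 its change went from 0.15 to 0.48 at 24 h and from −0.20 to 0.13 at 5 d, still not called. The share of *ENO2*, the neuronal enolase, among *ENO1* and *ENO2* was 19.4% ± 0.75 in SK-N-BE(2)C controls and 31.7% ± 3.42 at 7 d. It was 21.7% ± 7.01 and 42.2% ± 4.47 at 5 d for IMR-32 and 12.98% ± 0.77 and 23.7% ± 3.91 for SH-SY5Y, with no overlap in any of the lines. *ENO2* itself, chosen after its values were seen, was called only in IMR-32, at 241, 229.5, 257, 266 and 91.2 CPM in control and 378, 383, 355, 338 and 315 at 5 d (0.75 ± 0.27 (adjusted p = 0.0313)). That call was lost without 5 d replicate 1, 2 or 3, with changes of 0.72, 0.72 and 0.75, and with no filter on low counts (0.72). Without control replicate 5 the change was 0.55 and still called. *LDHB* made up 99.0% ± 0.07 of the lactate dehydrogenase reads per kilobase in SK-N-BE(2)C controls, 81.9% ± 4.31 of those in IMR-32 and 68.2% ± 3.96 of those in SH-SY5Y, and reached 80.6% ± 3.54 in SH-SY5Y and 87.4% ± 0.34 in IMR-32 at 5 d, without overlap with the controls in either line.

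**Figure D4:**
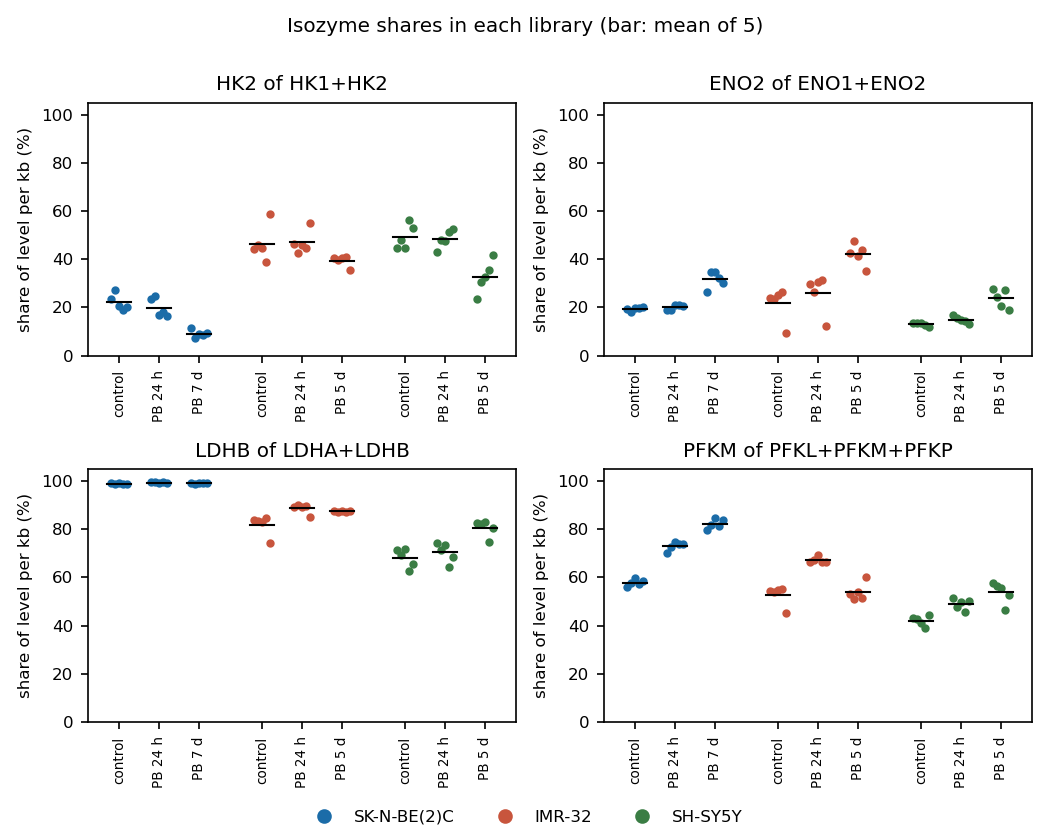
Share of reads per kilobase of exon taken by *HK2* (of *HK1* and *HK2*), *ENO2* (of *ENO1* and *ENO2*), *LDHB* (of *LDHA* and *LDHB*) and *PFKM* (of the 3 phosphofructokinases), in percent per library with a bar at the mean of 5. The *ENO2* share was higher at the longer time than in control in each line, and the *HK2* share was lower without overlap in SK-N-BE(2)C (9.11% against 22.1%) and SH-SY5Y (32.8% against 49.3%).

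*ALDOC*, the brain aldolase, rose at 24 h in SK-N-BE(2)C and SH-SY5Y and was lower again at the longer time. SK-N-BE(2)C libraries held 28.3, 18.7, 16.3, 15.6 and 17.8 CPM in control, 43.5, 30.8, 25.4, 29.5 and 29.7 at 24 h and 16.8, 7.96, 6.94, 9.58 and 8.96 at 7 d. Replicate 1 was the highest in each of these groups, and the groups overlapped through it. The change was 0.71 ± 0.22 (adjusted p = 0.0145) at 24 h and −0.95 ± 0.23 (adjusted p = 0.00155) at 7 d. SH-SY5Y libraries went from 29.2, 51.4, 48.5, 73.5 and 56.5 CPM to 74.3, 100.2, 101, 151 and 118 at 24 h without overlap (1.05 ± 0.24 (adjusted p = 0.00254)), and 5 d libraries differed by −0.19 ± 0.24 from control (adjusted p = 0.506). With replicates 3, 4 and 5 of SK-N-BE(2)C summed as 1, chosen after seeing the data, its 24 h call was lost (0.69, adjusted p = 0.126). *ALDOA*, the common aldolase, was read at only 0.68 to 4.25 CPM and shares 42.8% of its exon bases with a same-strand neighbour, so its values are uncertain. *GPI*, glucose phosphate isomerase, fell in SH-SY5Y (−0.70 ± 0.11 (adjusted p = 3.96e-05)), from 366 ± 39.1 to 228 ± 37.8 CPM. *PGK1*, phosphoglycerate kinase, was called against control in none of the lines, with −0.33 ± 0.08, −0.27 ± 0.10 and −0.45 ± 0.12 at the longer time for SK-N-BE(2)C, then IMR-32 and SH-SY5Y. The SH-SY5Y difference reached −0.50 and was called without control replicate 1 or 5 d replicate 5.

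The PFKFB enzymes set the level of fructose 2,6-bisphosphate, the activator of phosphofructokinase, and each was called in 1 line. *PFKFB2* rose in SK-N-BE(2)C, from 3.3, 2.25, 3.02, 1.5 and 3.09 CPM in control to 4.24, 4.56, 4.79, 4.73 and 5.14 at 24 h and 4.45, 6.05, 6.51, 6.17 and 7.1 at 7 d. All treated libraries lay over all controls, with changes of 0.82 ± 0.18 (adjusted p = 0.00148) and 1.20 ± 0.18 (adjusted p = 1.65e-05). In IMR-32 its change at 5 d was 0.50 ± 0.17 (adjusted p = 0.02), just under the limit, and 0.50 and called with the replicate block. Without control replicate 1, 3 or 5 or 5 d replicate 1 or 3 it was called at 0.50 to 0.54. *PFKFB3*, a form tied to proliferation, fell in SH-SY5Y from 41.9, 47.6, 53.2, 62.6 and 47.6 CPM to 21.2, 20.01, 22.95, 29.2 and 25.3 at 5 d (−1.11 ± 0.15 (adjusted p = 4.52e-06)). *PFKFB4* rose in SH-SY5Y at 24 h, from 12.6, 15.2, 18.1, 25.8 and 18.1 CPM to 25.6, 30.4, 31.1, 52.8 and 34.4 (0.93 ± 0.20 (adjusted p = 0.00112)), with replicate 4 the highest of both groups. In SK-N-BE(2)C *PFKFB4* differed by 0.48 ± 0.13 at 24 h and 0.47 ± 0.13 at 7 d, and passed the limit, at 0.51 to 0.53, without control replicate 1 or 24 h replicate 1 or 2 at the first time and without 7 d replicate 1 or 2 at the second. The SH-SY5Y difference at 5 d, 0.38 ± 0.20, was 0.54 and called without control replicate 4.

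Of the HIF subunits, *HIF1A* was called in none of the lines. It was at 598 ± 6.38 CPM in SK-N-BE(2)C controls and 636 ± 109 at 7 d, 301 ± 17.9 and 357 ± 30.5 at 5 d in SH-SY5Y, and 269 ± 32.4 and 217 ± 18.2 in IMR-32. At 24 h its SH-SY5Y libraries, 401, 435, 388, 382 and 372 CPM, all lay over the controls, 301, 325, 280.2, 288 and 311, with a difference of 0.37 ± 0.07 (adjusted p = 0.000163) under the limit of 0.5. *EPAS1* differed from control by 0.08 ± 0.23 in SH-SY5Y and 0.12 ± 0.18 in SK-N-BE(2)C at the longer time, and neither passed the test.

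*EGLN3* (14:34393433-34931980) encodes the prolyl hydroxylase that HIF itself induces. SK-N-BE(2)C controls held 56.9, 54.3, 72.4, 79.7 and 72.9 CPM, 24 h libraries 39.04, 40.97, 54.5, 57.02 and 52.1 and 7 d libraries 16.2, 23.9, 32.1, 26.2 and 22.5. SH-SY5Y controls held 23.3, 17.7, 21.1, 20.3 and 25.5 CPM, 24 h libraries 12.8, 14.2, 15.1, 14.5 and 14.8 and 5 d libraries 5.95, 3.87, 7.0, 8.17 and 8.52. The longer-treated libraries of both lines lay under all controls. *EGLN3* changed by −1.46 ± 0.17 (adjusted p = 1.09e-06) in SK-N-BE(2)C and by −1.71 ± 0.15 (adjusted p = 4e-08) in SH-SY5Y, where it had already changed by −0.63 ± 0.15 (adjusted p = 0.00177) at 24 h. Without SH-SY5Y replicates 1 and 4, chosen after seeing the data, that 24 h change was −0.57 and not called (adjusted p = 0.0611). In SK-N-BE(2)C the 24 h difference was −0.46 ± 0.16, and it was called, at −0.51 to −0.53, without control replicate 1 or 2 or 24 h replicate 3 or 4. IMR-32 differed by 0.21 ± 0.33 at 5 d (adjusted p = 0.62), with libraries from 2.66 to 13.97 CPM. *EGLN1*, the main oxygen sensor, was called in none of the lines, and a same-strand neighbour overlaps 55.8% of its exon bases.

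*DDIT4* (10:74033678-74035794), a stress-induced inhibitor of mTORC1 also known as REDD1, was the member shared by the 3 lines at 24 h. Such a shared rise was seen for 2.63% of the members tested in each line and 2.84% of all genes. SK-N-BE(2)C libraries held 80.8, 52.8, 48.4, 48.7 and 48.8 CPM in control, 134, 120.1, 122, 129.6 and 137 at 24 h and 104, 72.9, 75.7, 85.3 and 90.7 at 7 d. IMR-32 libraries held 73.2, 62.2, 61.8, 76.8 and 47.8 CPM, 129, 161, 114, 138 and 169 and 97.6, 85.1, 81.3, 74.4 and 69.9 at 5 d. SH-SY5Y libraries held 22.00, 40.5, 43.8, 44.9 and 39.6 CPM, 75.8, 92.1, 96.1, 119 and 107 and 47.05, 54.1, 65.2, 69.7 and 60.5. In each line all 24 h libraries lay over all controls. The 24 h change was 1.20 ± 0.13 (adjusted p = 2.47e-06) in SK-N-BE(2)C, 1.15 ± 0.14 (adjusted p = 9.86e-06) in IMR-32 and 1.34 ± 0.17 (adjusted p = 1.47e-05) in SH-SY5Y. At the longer time it was 0.63 ± 0.13 (adjusted p = 0.000517), 0.38 ± 0.14 (adjusted p = 0.0271, under the limit of 0.5) and 0.62 ± 0.17 (adjusted p = 0.00563). The SH-SY5Y call at 5 d was lost, at 0.47, without control replicate 1, the lowest control. *DDIT4* was lower at the longer time than at 24 h in each line, by −0.57 ± 0.13, −0.76 ± 0.14 and −0.72 ± 0.17.

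*NDRG1* had the opposite course and was higher at the longer time in each line. It was the only member so called, 1 of the 38 tested in each line (2.63%), against 6.91% of all genes. SK-N-BE(2)C libraries held 1.0, 1.22, 1.32, 1.5 and 0.859 CPM in control, 1.94, 1.48, 2.49, 1.56 and 2.52 at 24 h and 1.53, 2.07, 8.01, 3.06 and 3.21 at 7 d. IMR-32 libraries held 10.8, 10.6, 8.09, 12.2 and 12.04 CPM, 19.8, 16.96, 9.96, 17.7 and 27.5 and 27.9, 31.5, 22.99, 25.5 and 24.02 at 5 d, and SH-SY5Y libraries 10.96, 13.6, 13.5, 12.03 and 11.1 CPM, 13.6, 14.4, 16.1, 15.5 and 15.8 and 27.6, 23.3, 22.2, 25.5 and 15.95. The longer-treated libraries lay over all controls in each line, and in SK-N-BE(2)C the 7 d libraries other than replicate 3 were at 3.21 CPM or less. The change was 1.64 ± 0.38 (adjusted p = 0.000955) in SK-N-BE(2)C, 1.33 ± 0.20 (adjusted p = 8.34e-05) in IMR-32 and 0.89 ± 0.11 (adjusted p = 2.32e-06) in SH-SY5Y. Without 7 d replicate 3 the SK-N-BE(2)C change was 1.08 and still called. At 24 h *NDRG1* was called in IMR-32 (0.78 ± 0.20 (adjusted p = 0.0083)).

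*VEGFA* (6:43737921-43754224), chosen after its values were seen, differed between lines at 24 h. SH-SY5Y controls held 65.1, 64.7, 63.3, 89.5 and 78.5 CPM, the 24 h libraries 106, 90.3, 90.6, 118 and 115 and the 5 d libraries 132, 115, 97.2, 134 and 116. SK-N-BE(2)C controls held 107, 97.3, 121, 123 and 119 CPM and the 7 d libraries 139, 211, 228, 183 and 164. IMR-32 controls held 13.4, 10.2, 14.1, 11.4 and 22.4 CPM, the 24 h libraries 8.59, 7.3, 8.35, 8.49 and 11.5 and the 5 d libraries 17.2, 17.8, 15.6, 16.6 and 11.4. *VEGFA* thus rose without overlap at the longer time in SH-SY5Y (0.70 ± 0.11 (adjusted p = 3.52e-05)) and SK-N-BE(2)C (0.72 ± 0.13 (adjusted p = 0.000171)). The 24 h difference in SH-SY5Y was 0.50 ± 0.11 (adjusted p = 0.00143), just under the limit. It was called with the replicate block at 0.50, and at 0.53 to 0.59 without control replicate 4 or 5 or 24 h replicate 2 or 3. In IMR-32 *VEGFA* fell at 24 h (−0.69 ± 0.20 (adjusted p = 0.016)), and without control replicate 5, the highest, the change was −0.46 and not called. At 5 d it differed from control by 0.18 ± 0.20, and by 0.51, called, without replicate 5 of every group.

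*BNIP3L*, also called NIX, is a receptor that marks mitochondria for removal. It rose at 7 d in SK-N-BE(2)C, where controls held 36.3, 24.7, 29.1, 28.2 and 29.7 CPM and the 7 d libraries 51.8, 77.6, 75.8, 65.1 and 61.3 (1.18 ± 0.12 (adjusted p = 2.15e-07)), and was called in no comparison in the other lines. *BNIP3*, its relative, was not called against control in any of the lines. *KDM3A*, a histone demethylase, rose in SK-N-BE(2)C at 7 d from 30.6 ± 2.35 to 50.5 ± 5.55 CPM (0.73 ± 0.08 (adjusted p = 2.65e-07)). *P4HA1*, a collagen prolyl hydroxylase, fell in SK-N-BE(2)C from 61.8 ± 4.16 to 34.4 ± 7.91 CPM (−0.84 ± 0.11 (adjusted p = 3.81e-06)) and in IMR-32 from 15.9, 17.7, 18.2, 14.3 and 39.2 CPM to 7.85, 8.75, 8.54, 7.43 and 12.5 (−1.18 ± 0.28 (adjusted p = 0.00292)), the latter −0.83 and still called without control replicate 5. *P4HA2* rose in SH-SY5Y at 24 h by 0.56 ± 0.09 (adjusted p = 3e-05). *ANKRD37*, low throughout, fell in SK-N-BE(2)C from 1.7 ± 0.305 to 0.818 ± 0.210 CPM (−1.03 ± 0.24 (adjusted p = 0.00111)). In IMR-32 it differed by 0.50 ± 0.36 at 24 h and 0.56 ± 0.36 at 5 d, and was called at 0.88 and 0.94 without control replicate 5. *ADM*, adrenomedullin, had 8 to 72 reads per library in SK-N-BE(2)C and SH-SY5Y and was not called.

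*BHLHE40*, a circadian and stress repressor, was called lower in IMR-32 at 5 d (3.8, 3.87, 4.25, 3.41 and 1.76 CPM in control and 1.8, 1.74, 1.64, 2.44 and 1.15 at 5 d, −0.92 ± 0.36 (adjusted p = 0.0425)). That call was lost when any of 8 of the 10 libraries compared was left out, all but control replicate 5 and 5 d replicate 4, and the change lay between −1.08 and −0.80 over all alternatives run. In SH-SY5Y the 24 h libraries held 1.98, 3.69, 5.9, 7.06 and 2.59 CPM against 1.24, 1.64, 2.66, 3.53 and 1.12 in control, a difference of 1.04 ± 0.44 (adjusted p = 0.0617) that was 1.03 and called with the replicate block, and 1.33, 1.21 and 1.17 and called without control replicate 4, 24 h replicate 1 and 24 h replicate 5. In IMR-32 the 24 h difference of −0.94 ± 0.36 was called, at −1.10, −1.08 and −0.69, without control replicate 5, 24 h replicate 2 and 24 h replicate 5, and at −0.97 and −0.99 with RLE factors and with library size alone. In SK-N-BE(2)C the 7 d difference of −0.43 ± 0.14 was −0.56 and called without 7 d replicate 1.

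The longer groups were also set against 24 h, where both sides had received PB. SK-N-BE(2)C had 2 members higher and 14 lower at 7 d than at 24 h, where 17.5% and 14.4% of all genes were called. SH-SY5Y had 1 higher and 21 lower at 5 d, where 10.5% and 6.23% of all genes were. IMR-32 had 4 higher and 4 lower, where 10.8% and 8.86% were. The glycolysis members' median was −0.41 in SK-N-BE(2)C, −0.69 in SH-SY5Y and −0.01 in IMR-32. *LDHB* and *DDIT4* were called lower and *NDRG1* higher in each of the 3 lines, of which the *LDHB* and *NDRG1* calls did not hold in every setting. Of the 38 members tested in each line, 5.26% were lower and 2.63% higher in all of them, against 0.709% and 1.92% of all genes. The count in IMR-32 was 5, 5, 4 and 3 in place of 8 without 24 h replicate 2 and 5 d replicates 1, 2 and 4, or 12.8%, 12.8%, 10.3% and 7.69% in place of 20.5% of members, where 16.8%, 18.2%, 17.0% and 16.6% in place of 19.6% of all genes were called. *LDHB* differed by −0.59 ± 0.07 in SK-N-BE(2)C, −0.51 ± 0.12 in SH-SY5Y and −0.55 ± 0.10 in IMR-32. The IMR-32 call was lost, at −0.47 and −0.50, without 24 h replicate 2 and 5 d replicate 4, and the SH-SY5Y call, at −0.39 to −0.49, without 24 h replicate 3, 4 or 5 or 5 d replicate 1 or 2. The SH-SY5Y call was lost in 10 of 16 settings in all, among them RLE factors and DESeq2 (both −0.50), no filter on low counts (−0.49), library size alone (−0.45) and no replicates 1 and 4 (−0.36), and the IMR-32 call was lost with library size alone too (−0.49). *NDRG1* differed by 0.88 ± 0.36 in SK-N-BE(2)C, 0.61 ± 0.11 in SH-SY5Y and 0.56 ± 0.20 in IMR-32. Without 7 d replicate 3 the SK-N-BE(2)C value was 0.33 and not called, and the call was also lost, at 0.78 to 0.92, without 24 h replicate 1, 2 or 4 or 7 d replicate 5. The IMR-32 call was lost, at 0.40 to 0.58, without any of 24 h replicates 1 to 4 or 5 d replicates 1, 2 and 4. With no filter on low counts the *NDRG1* calls of SK-N-BE(2)C (0.84) and IMR-32 (0.55) were lost. With SK-N-BE(2)C replicates 3, 4 and 5 summed as 1 its *NDRG1* call was lost (0.69), as was that of SH-SY5Y without replicates 1 and 4 (0.42). *HK2*, *PFKP*, *ALDOC*, *TPI1*, *ENO1*, *PDK1*, *EGLN3* and *BHLHE40* were also lower in both SK-N-BE(2)C and SH-SY5Y, which makes 10 of 40 members (25.0%) against 2.67% of all genes, and in IMR-32 *PFKP* (0.60 ± 0.10 (adjusted p = 0.000402)) and *PDK1* (0.51 ± 0.14 (adjusted p = 0.0106)) were higher, the latter lost, at 0.46 to 0.48, without 24 h replicate 4 or 5 or 5 d replicate 2, 3 or 4. The *BHLHE40* call was lost in SK-N-BE(2)C without 7 d replicate 3 and with replicates 3, 4 and 5 summed as 1. In SH-SY5Y it was lost without 24 h replicate 4 and with no filter on low counts. With the replicate block, *ALDOC* at −0.65 and *ENO2* at 0.80 were also called in IMR-32.

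Whether a response differed among the 3 lines was tested in 1 fit of all libraries. At 24 h 5 of 41 members differed, 12.2% against 9.43% of all genes, and these were *PFKL*, *HIF1A*, *EGLN1*, *VEGFA* and *BHLHE40*. With the replicate block 15 differed, 36.6% against 19.2% of all genes. Without replicate 1, 2, 3, 4 and 5 of every group the count was 3, 2, 1, 3 and 8, or 7.32%, 4.88%, 2.44%, 7.32% and 19.5% of members, where 5.24%, 4.81%, 4.04%, 4.23% and 10.0% of all genes differed. For *VEGFA* at 24 h the response in SK-N-BE(2)C minus that in IMR-32 was 0.91 ± 0.23 (adjusted p = 0.00914), and that in IMR-32 minus that in SH-SY5Y was −1.21 ± 0.23 (adjusted p = 0.000673). At the longer time 20 of 41 members differed, 48.8% against 52.4% of all genes. With a difference over 0.5 between at least 2 lines also asked for, 19 differed, 46.3% against 39.3% of all genes. Of the 20 that differed by the test alone, 11 were glycolysis members (*HK2*, *GPI*, *PFKL*, *PFKP*, *TPI1*, *GAPDH*, *ENO2*, *PFKFB2*, *PFKFB3*, *PDK1* and *PDK3*) and 9 were hypoxia members (*HIF1A*, *EGLN3*, *BNIP3L*, *VEGFA*, *ADM*, *ANKRD37*, *P4HA1*, *P4HA2* and *KDM3A*). *GPI* did not pass the limit of 0.5, with a largest difference of 0.48 (IMR-32 minus SH-SY5Y). The *PFKP* response in SK-N-BE(2)C differed by −1.92 ± 0.21 from that in IMR-32 (adjusted p = 4.69e-09) and by −0.67 ± 0.22 from that in SH-SY5Y (adjusted p = 0.0158). The *GAPDH* response in IMR-32 was 0.57 ± 0.12 above that in SH-SY5Y (adjusted p = 0.000215), whereas SK-N-BE(2)C and SH-SY5Y differed by 0.09 ± 0.12 (adjusted p = 0.583). For *BNIP3L* the response in SK-N-BE(2)C was 1.33 ± 0.16 above that in IMR-32 (adjusted p = 1.74e-08) and 0.95 ± 0.16 above that in SH-SY5Y (adjusted p = 1.33e-05).

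**Figure D5:**
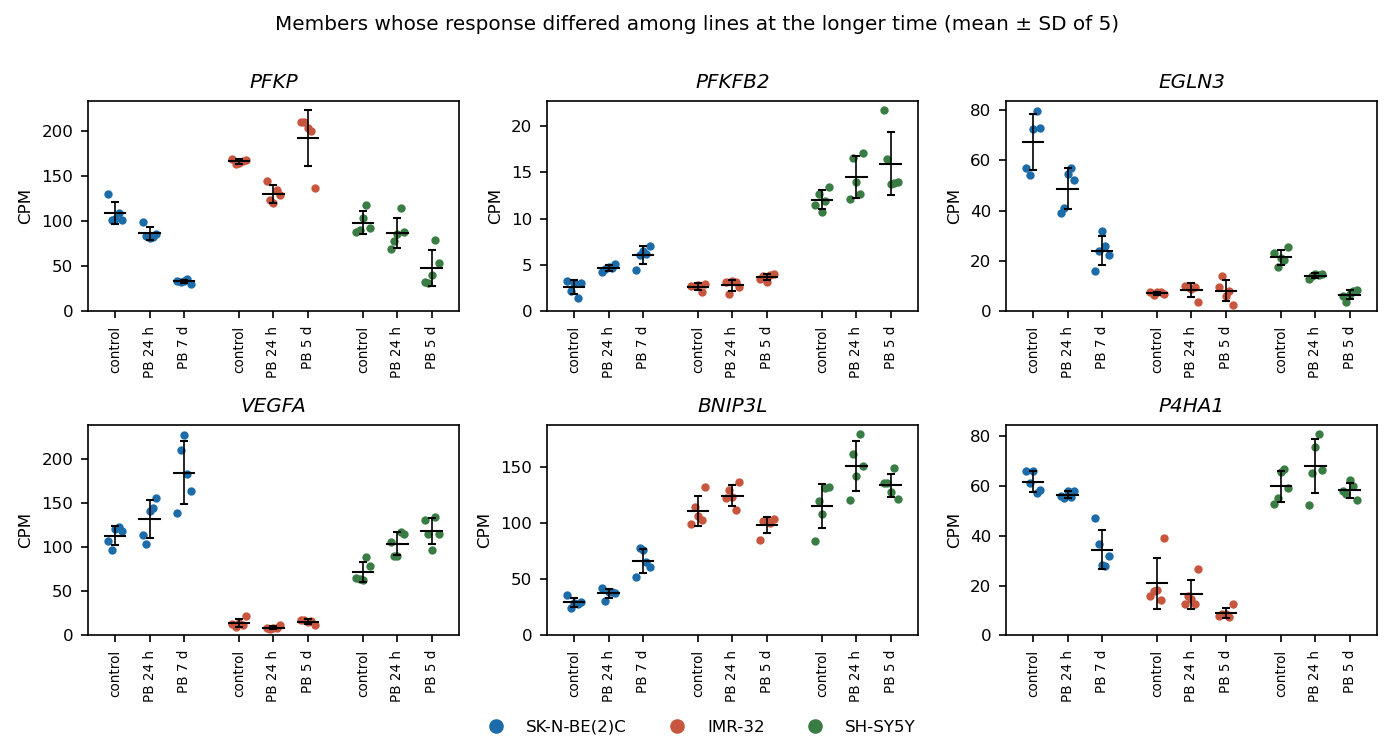
CPM of *PFKP*, *PFKFB2*, *EGLN3*, *VEGFA*, *BNIP3L* and *P4HA1* in each of the 45 libraries by line and group, with points for libraries and bars for the mean ± SD of 5. *PFKP* and *EGLN3* fell at the longer time in SK-N-BE(2)C and SH-SY5Y and not in IMR-32, *PFKFB2* and *BNIP3L* rose in SK-N-BE(2)C, and *P4HA1* fell in IMR-32 and SK-N-BE(2)C.

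A further list of 72 genes of glycolysis, its branches and the hypoxia response, none of them a member, was counted by the same calls. At 24 h 7 were higher and 2 lower of 61 tested in SK-N-BE(2)C, 5 and 3 of 56 in IMR-32, and 12 and 5 of 60 in SH-SY5Y. For the longer treatment the counts were 16 and 15, 7 and 10, and 15 and 14. At that time genes of glycolysis and its branches gave 6 higher and 10 lower of 29 tested in SK-N-BE(2)C. They gave 3 and 6 of 29 in IMR-32, and 8 and 5 of 31 in SH-SY5Y. The hypoxia genes of the list gave 10 and 5 of 32, 4 and 4 of 27, and 7 and 9 of 29. Of all genes, 10.9% and 10.6%, 7.87% and 10.5%, and 10.5% and 11.0% were called at 24 h, and 24.5% and 22.3%, 16.6% and 15.5%, and 18.6% and 17.3% after the longer treatment. The genes below are those of this list called alike in all 3 lines, given as values. At 24 h *LOX*, a collagen crosslinking enzyme and HIF target, was lower in each line (−1.24, −0.90 and −1.11 on the log2 scale for SK-N-BE(2)C, then IMR-32 and SH-SY5Y). *MXI1*, a MAX partner, was higher (0.63, 0.71 and 0.53). *TXNIP*, which restrains glucose uptake, was higher in each line both at 24 h (0.86, 0.59 and 0.51) and after the longer treatment (2.08, 0.81 and 1.12). At the longer time *CA12*, a carbonic anhydrase, was lower (−2.21, −1.17 and −1.49), as were *PGM2*, a phosphopentomutase (−1.52, −0.61 and −0.79), and *ZNF395* (−0.85, −0.72 and −0.75), while the histone demethylase *KDM4C* was higher (0.89, 0.66 and 0.55). Against 24 h, *FAM162A* (−0.52, −0.53 and −1.03) and *PCK2*, the mitochondrial form of phosphoenolpyruvate carboxykinase (−0.68, −0.54 and −0.52), were lower in each line.

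Over the 6 comparisons with control, 32 of 41 members (78.0%) were called at least once, as were 65.2% of all genes tested in at least 1 line. The 9 that were tested and never called were *SLC2A3*, *HK1*, *ALDOA*, *PGK1*, *HIF1A*, *EPAS1*, *EGLN1*, *BNIP3* and *ADM*. Among them *HK1* differed from control at 24 h in SH-SY5Y, 262 ± 20.1 against 191 ± 15.3 CPM, by 0.42 ± 0.07 (adjusted p = 4.07e-05), under the limit of 0.5.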

How the data were processed

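The data are polyA RNA-seq of 45 libraries from 3 established cell lines, made with a directional kit and read in pairs (read length 100) on a NovaSeq. Per the labels, the authors trimmed reads with Trim Galore 0.6.4 (phred 20), aligned them to hg19 with STAR 2.6.1d, whose quantMode gave the counts. The strand used is not stated. The deposited counts are whole numbers without normalization, in 1 table per line. The authors' deposited CPM values and their tables of DESeq2 fold changes and p-values were not used.

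CPM printed here were computed from the counts with TMM factors over all 45 libraries, so that levels share 1 scale across lines. For the tests each line was analysed by itself in edgeR 4.0.16 (R 4.3.3), with its own TMM factors, after filterByExpr (at least 10 counts, 15 in total, share 0.7). The quasi-likelihood fit was robust, had a mean for each group and took in all 15 libraries of the line. It covered 14547 genes for SH-SY5Y, 14293 for IMR-32 and 14055 for SK-N-BE(2)C, over which p-values were adjusted by the Benjamini-Hochberg method. Calls needed an adjusted p below 0.05 and a change past 0.5 on the log2 scale in either direction, the limits the study used. The standard error of a change was taken as its size over the root of its F statistic. A fit of all 45 libraries (16282 genes) tested untreated lines against each other and whether responses differ among lines. The scripts were tested on simulated data with 200 changed genes. Intervals of counting error are not given per value, since the tests use the spread between libraries. Shares of isozymes are per kilobase of exon. Gene positions follow GENCODE lifted to GRCh37, and promoter stretches follow RefSeq on GRCh38.p14. Where a gene had several promoters the first listed was used.

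The members, the gene lists and the rule for naming genes were chosen with earlier results of these data known. The rule named members called alike in all 3 lines against control or in opposite directions in 2 lines, the member of each role with the highest mean absolute fold change at either time, and the 3 members of highest level. Others given per library were chosen after their values were seen. Alternatives were another scaling (RLE, or library size alone), no filter on low counts, adjusted p alone, DESeq2 1.42.0, the replicate number as a block, and each library left out in turn. Chosen after seeing the data were IMR-32 without replicate 5, SH-SY5Y without replicates 1 and 4, and SK-N-BE(2)C with replicates 3, 4 and 5 summed as 1, since these lay closer to each other and may share a source that the labels do not give. After group means were taken out, same-numbered libraries correlated above 0.1 in every pair in 6 of 9 comparisons within lines. The lowest pair was −0.000226 for 7 d against 24 h in SK-N-BE(2)C, 0.0763 for 24 h against control in IMR-32 and 0.0912 for 5 d against control in SH-SY5Y. Samples and genes outside the files given, PRRX1 and SOX10 among them, were not analysed here.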

Additional observations from a re-analysis of the deposited data

Results flagged for a closer look

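A library was marked where its gap to the nearest of the other 4 in its group, as a share of the group's range, passed 0.71. Over 20 members and 9 groups this marked 23 of 180 sets, where chance marks about 1 in 20. Replicate 5 of IMR-32 accounted for 10 of them. These were the control for *PGAM1* (0.864), *ENO1* (0.789), *ENO2* (0.793), *PKM* (0.913) and *LDHA* (0.807). They were also the 24 h library for *ENO2* (0.915), *PKM* (0.902), *PFKFB4* (0.858) and *EGLN3* (0.837), and the 5 d library for *PFKP* (0.866). IMR-32 replicate 2 at 24 h was marked for *GAPDH* (0.763).

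In SK-N-BE(2)C replicate 1 was marked in control for *PFKP* (0.743), *ALDOC* (0.756) and *DDIT4* (0.862), at 24 h for *PFKP* (0.762) and at 7 d for *ALDOC* (0.731). Replicate 2 was marked at 24 h for *SLC2A1* (0.798) and in control for *LDHA* (0.717), and replicate 3 at 7 d for *NDRG1* (0.74). In SH-SY5Y replicate 4 was marked for *ENO2* at 24 h (0.786) and 5 d (0.768) and for *PFKFB4* at 5 d (0.82), and replicate 1 in control for *DDIT4* (0.767).

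Responses that differed among the lines by the test of the difference itself (edgeR's quasi-likelihood test, adjusted over all genes) numbered 25. At 24 h the adjusted p was 0.00696 for *PFKL*, 0.0261 for *HIF1A*, 0.0357 for *EGLN1*, 0.000958 for *VEGFA* and 0.0205 for *BHLHE40*. At the longer time, among enzymes of glycolysis, it was 0.0293 for *HK2*, 0.0038 for *GPI*, 5.02e-08 for *PFKL*, 1.01e-08 for *PFKP*, 0.0168 for *TPI1*, 0.000164 for *GAPDH* and 0.0137 for *ENO2*. For regulators it was 0.00445 for *PFKFB2*, 1.58e-06 for *PFKFB3*, 0.00549 for *PDK1* and 1.01e-06 for *PDK3*. Among hypoxia members it was 0.00189 for *HIF1A*, 3.96e-05 for *EGLN3*, 3.15e-08 for *BNIP3L*, 0.0441 for *VEGFA*, 0.0239 for *ADM*, 0.00221 for *ANKRD37*, 0.00112 for *P4HA1*, 0.00827 for *P4HA2* and 0.000883 for *KDM3A*. At that time line and duration cannot be told apart where SK-N-BE(2)C (7 d) is set against the others (5 d).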

How the results depend on the processing

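No called value changed sign under any alternative run. On adjusted p alone, without the limit of 0.5, members called at 24 h, at the longer time and between the times were 14, 26 and 28 for SH-SY5Y, 11, 16 and 11 for IMR-32, and 16, 33 and 26 for SK-N-BE(2)C. For SK-N-BE(2)C these were 39.0%, 80.5% and 63.4% of members tested, where 46.8%, 71.1% and 59.3% of all genes passed. For IMR-32 they were 28.2%, 41.0% and 28.2% against 33.1%, 51.0% and 34.4%, and for SH-SY5Y 35.0%, 65.0% and 70.0% against 49.2%, 65.4% and 43.5%. Without the filter on low counts the hypoxia median in SK-N-BE(2)C was −0.090 at 7 d against control and −0.28 against 24 h, with members of low count included. Without replicate 5, IMR-32 had 11 members called at 5 d (28.2%, and 35.0% of all genes), with medians of −0.011 (glycolysis) and 0.091 (hypoxia). Responses differing among lines at 24 h numbered 2 with a difference over 0.5 also asked for (4.88% of members and 6.55% of all genes), 8 without replicate 5 of IMR-32 (19.5% and 14.2%), and 15 with the replicate block (36.6% and 19.2%).

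Leaving out 1 library at a time, hypoxia medians lay between −0.026 and 0.15 (SK-N-BE(2)C, 24 h), −0.057 and 0.15 (7 d), 0.014 and 0.20 (IMR-32, 24 h), −0.16 and 0.12 (5 d), −0.0054 and 0.13 (SH-SY5Y, 5 d) and, for IMR-32, −0.20 and −0.074 (5 d against 24 h). Glycolysis medians in IMR-32 lay between −0.11 and 0.036 at 24 h and between −0.13 and −0.024 at 5 d. Members called in IMR-32 for 5 d against 24 h numbered 3 to 8 (7.69% to 20.5%, and 16.6% to 21.3% of all genes), and responses differing at 24 h numbered 1 to 8 with each replicate left out of every group. With the replicate block 8 member calls were gained and none lost. They included *SLC2A1* for 7 d against 24 h in SK-N-BE(2)C (−0.52) and *BHLHE40* at 24 h in IMR-32 (−0.99). In these comparisons not every same-numbered pair correlated above 0.1. The other gains were *PKM* (−0.59) and *PFKFB2* (0.50) at 5 d and *ALDOC* (−0.65) and *ENO2* (0.80) for 5 d against 24 h in IMR-32. In SH-SY5Y they were *VEGFA* (0.50) and *BHLHE40* (1.03) at 24 h. Every pair correlated above 0.1 in the comparisons of these other gains. Shares of isozymes taken from counts without length moved by more than 1 SD in 38 cases and by less in 25. Calls that held in every setting were 24 of 24 in SK-N-BE(2)C at 7 d and 16 of 18 in SH-SY5Y at 5 d, but 4 of 7 in IMR-32 at 5 d.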
